A study of Homo sapiens with 12 samples.

Results

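The sterol regulatory element-binding protein (SREBP) pathway was examined in RNA captured with either of 2 biotinylated microRNAs in HEK293T cells. The genes were SCAP, SREBF1, SREBF2, INSIG1, HMGCS1, FASN and SCD, taken by gene symbol from the annotation of the array. Of these 7 genes, 6 were represented, by 7 of the 15329 probes in the value table, with 2 probes for INSIG1 and 1 for each of the other 5 genes. No probe in the table carried the symbol SREBF2, and it was not analysed here. HEK293T is a human embryonic kidney line that expresses the SV40 large T antigen. Cells were given 200 pmol of a synthetic duplex of miR-199a-5p or of miR-424-3p and were lysed 24 hours later. Streptavidin beads were used to recover the duplex and RNA bound to it (the pull-down). RNA from cells that had received the same duplex without the bead step served as the input. Each of the 4 groups (a pull-down and an input for either duplex) held 3 Illumina HT-12 arrays, numbered as replicates 1 to 3. All 4 groups were thus transfected, and no untransfected cells entered the comparison. No group was a pull-down without a duplex. The study names unspecific contact with the beads and association with endogenous biotin as possible sources of enriched transcripts. Whether either applied to the genes here was not tested. The labels do not say whether the numbered replicates were separate cultures. A legend of the study calls such triplicates independent but names miR-199b-5p in place of miR-199a-5p, whereas its data statement names miR-199a. The p-values weigh a change against the spread between these arrays, which may not be separate cultures.

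The values were normalized log2 signals, and the median of an array lay between 9.15 and 9.21 on that scale. The lowest value on any array was 7.56. Arrays of 1 group correlated at 0.983 or more across probes, and pull-downs with their own inputs at 0.917 to 0.95. Of 9 markers chosen for HEK293T, 5 had a probe, with vimentin (VIM) at 13.74 to 13.97 and neurofilament NEFM at 9.76 to 10.29 in the 6 inputs. The other 3 lay lower, KRT8 at 8.61 to 9.23, NEFL at 8.64 to 8.82 and KRT18 at 8.32 to 8.74. Of 14 markers of fibroblasts, hepatocytes, adipocytes and blood cells only 2 had a probe, with COL1A1 at 7.82 to 8.14 and ALB at 8.22 to 8.66 in the inputs.

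SREBP proteins are transcription factors that are made as precursors in the membrane of the endoplasmic reticulum. SCAP, a sterol-sensing escort protein, carries them in COPII vesicles to the Golgi, where proteases release the active part. When sterols are plentiful, INSIG proteins hold SCAP back in the endoplasmic reticulum, and the genes of cholesterol and fatty acid synthesis are then transcribed less. The pull-down does not measure this activity. It compares the signal of each mRNA in the pull-down with that in the input, on arrays normalized to nearly equal medians. Enriched and depleted are therefore relative to the other probes of the array, and they are not amounts of RNA.

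The microRNAs that served as bait are shown by their reference sequences, because all comparisons turn on them. The study's list of duplex sequences holds neither, so the exact bases of the synthetic duplexes are not known here. The sequences below are the mature human forms in RefSeq (GRCh38.p14), read from 5′ to 3′, with the seed, bases 2 to 8, in capitals.
miR-199a-5p: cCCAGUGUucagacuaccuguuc
miR-424-3p: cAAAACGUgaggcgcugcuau
The first, of 23 bases, is encoded at chr19:10817469-10817491 (MIR199A1, within the span of DNM2) and at chr1:172144592-172144614 (MIR199A2, within that of DNM3 and DNM3OS), on the minus strand at both places. The second, of 21 bases, is encoded at chrX:134546644-134546664 (MIR424, minus strand). The seeds differ, so that their full complements in a target are ACACUGG for miR-199a-5p and ACGUUUU for miR-424-3p. Transcripts were not searched for these letters, since no transcript sequence was used here.

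In the miR-199a-5p pull-down SCAP had the largest log2 fold change of these genes (1.93 ± 0.14, SE, n = 3 against 3 arrays). FASN (0.83 ± 0.27), HMGCS1 (0.74 ± 0.14), SCD (0.33 ± 0.10) and SREBF1 (0.25 ± 0.09) were also enriched, while INSIG1 was depleted by its brighter probe (-0.72 ± 0.09). With miR-424-3p, SCAP, SCD and SREBF1 were enriched by 0.53, 0.42 and 0.41, and HMGCS1 (-0.57) and the same INSIG1 probe (-0.24) were depleted. A probe was called higher or lower where the one-sided limma test of its pull-downs against the inputs of the same duplex gave an adjusted p under 0.05 (Benjamini-Hochberg over 15329 probes). With miR-199a-5p, 5 of 7 probes were called higher and 1 lower, beside 25.6% and 25.9% of all probes. With miR-424-3p, 3 were higher and 2 lower, against 26.3% and 28.8% of all probes. The medians of the 7 log2 fold changes were 0.33 and 0.41, and those of all probes 0.00 and -0.02. On 4 probes the 3 miR-199a-5p pull-downs all lay above the 3 inputs and on 1 below, as on 28.2% and 29.5% of all probes. For miR-424-3p these counts were 3 and 2 (30.1% and 33.6% of all probes). These counts are a description and no test of the pathway.

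**Figure D1:**
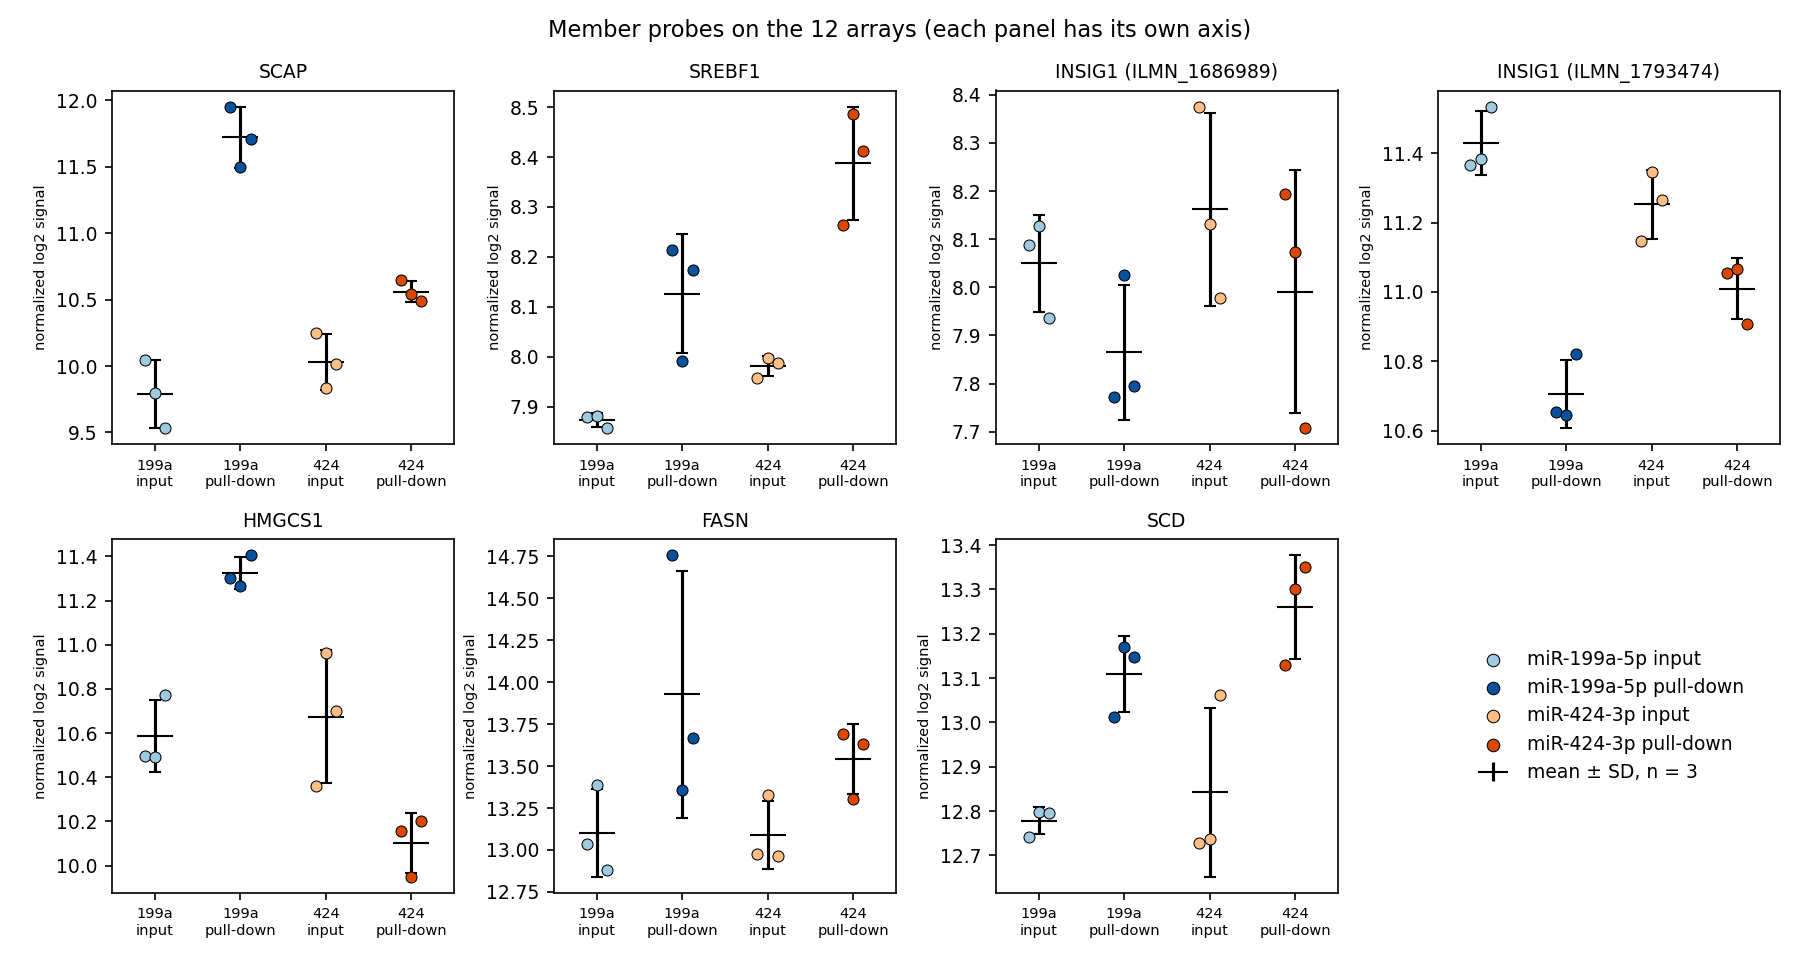
Normalized log2 signal of the 7 probes (1 panel each, each with its own vertical axis) on the 3 arrays of each group, with bars for the mean ± SD (n = 3). The 3 miR-199a-5p pull-downs stand apart above all other arrays for SCAP (11.50 to 11.95) and for HMGCS1 (11.27 to 11.41), and below all others for INSIG1 probe ILMN_1793474 (10.64 to 10.82).

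SCAP, the escort of SREBP, was represented by probe ILMN_1677534. Its log2 signal was 11.95, 11.50 and 11.71 in the miR-199a-5p pull-downs (replicates 1 to 3), against 10.05, 9.80 and 9.53 in their inputs. The values were 10.65, 10.55 and 10.49 in the miR-424-3p pull-downs and 10.25, 9.83 and 10.01 in the corresponding inputs. Every pull-down thus lay above every input, and the miR-199a-5p pull-downs lay above those of miR-424-3p as well. The order of the group means ran from the miR-199a-5p input (9.79 ± 0.26, SD, n = 3) through the miR-424-3p input (10.03 ± 0.21) and the miR-424-3p pull-down (10.56 ± 0.08) to the miR-199a-5p pull-down (11.72 ± 0.23). Only the inputs, neighbours in that order, overlapped. SCAP was enriched 3.81-fold by miR-199a-5p, a log2 fold change of 1.93 ± 0.14 (± SE, adjusted p = 5.61e-07 in the limma test), which stood at rank 16 of 15329 probes from the top. The genes were chosen with earlier results of these data known, so this rank and p-value are no independent test of SCAP. With miR-424-3p the log2 fold change was 0.53 ± 0.14 (adjusted p = 0.00679), at rank 2271. The enrichments differed by 1.40 ± 0.20 on the log2 scale (95% confidence interval 0.96 to 1.84, adjusted p = 2.06e-04 in the interaction test).

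SREBF1 encodes SREBP-1, the form best known for driving fatty acid synthesis. The signal of probe ILMN_1663035 was 8.21, 7.99 and 8.17 in the miR-199a-5p pull-downs against 7.88, 7.88 and 7.86 in the inputs. In the miR-424-3p pull-downs it was 8.26, 8.49 and 8.41, against 7.96, 8.0 and 7.99 in the inputs. Pull-downs of either duplex lay above their own inputs, although replicate 2 of the miR-199a-5p pull-downs also fell within the miR-424-3p inputs. All these values lay near the bottom of the scale, where the transformation of the authors compresses differences. The log2 fold change was 0.25 ± 0.09 with miR-199a-5p (adjusted p = 0.0256) and 0.41 ± 0.09 with miR-424-3p (adjusted p = 0.00132). The first call was lost with any 1 of 5 of the 6 arrays left out (log2 fold change 0.21 to 0.26), the exception being replicate 2 of the pull-downs. A difference between the enrichments was not called, at -0.15 ± 0.12 with an interval of -0.42 to 0.11.

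INSIG1 encodes the retention protein of SCAP, and its gene is itself a target of SREBP. Probe ILMN_1793474 gave 10.65, 10.64 and 10.82 in the miR-199a-5p pull-downs, below 11.37, 11.38 and 11.53 in their inputs. For miR-424-3p it gave 11.05, 11.07 and 10.91 in the pull-downs and 11.15, 11.34 and 11.27 in the inputs. Of the 7 probes it was the 1 called lower with both duplexes, and its pull-downs and inputs did not overlap in either. The depletion was -0.72 ± 0.09 with miR-199a-5p (1.65-fold lower, adjusted p = 1.68e-05) and -0.24 ± 0.09 with miR-424-3p (1.18-fold lower, adjusted p = 0.0354). The difference, a deeper depletion with miR-199a-5p, was -0.48 ± 0.13 (adjusted p = 0.0101). Part of it lay in the inputs, which were higher for miR-199a-5p by 0.18 ± 0.09 without overlap, though this was not called. The miR-424-3p call was lost without replicate 3 of the pull-downs (-0.19) and without replicate 2 (-0.20) or 3 (-0.24) of the inputs. The other probe, ILMN_1686989, lay between 7.71 and 8.38 on all 12 arrays, with its groups overlapping. Its log2 fold changes of -0.19 ± 0.13 and -0.17 ± 0.13 were not called (intervals -0.47 to 0.10 and -0.46 to 0.11).

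HMGCS1, the cytosolic synthase that makes HMG-CoA for the mevalonate pathway, was the 1 gene of the 6 with calls in opposite directions. Probe ILMN_1797728 stood at 11.30, 11.27 and 11.41 in the miR-199a-5p pull-downs, above inputs at 10.49, 10.49 and 10.77. In the miR-424-3p pull-downs it stood at 10.16, 9.95 and 10.20, below its inputs at 10.36, 10.96 and 10.70. The groups did not overlap in either comparison. Enrichment with miR-199a-5p was 0.74 ± 0.14 (1.67-fold, adjusted p = 4.57e-04), and depletion with miR-424-3p was -0.57 ± 0.14 (1.49-fold lower, adjusted p = 0.00239). The difference of 1.31 ± 0.19 (95% confidence interval 0.90 to 1.72, adjusted p = 2.05e-04) was close in size to that of SCAP.

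FASN, the fatty acid synthase, varied more between arrays than the other genes. Its probe ILMN_1784871 gave 14.76, 13.36 and 13.67 in the miR-199a-5p pull-downs, with inputs at 13.04, 13.39 and 12.88. In the miR-424-3p pull-downs it gave 13.69, 13.30 and 13.63 against 12.98, 13.32 and 12.97. Replicate 1 of the miR-199a-5p pull-downs was far above the other arrays, whereas replicate 2 lay just below the highest input. The log2 fold change of 0.83 ± 0.27 was called with miR-199a-5p (adjusted p = 0.0177) but fell short without replicate 1 of the pull-downs, where it was 0.41, and without replicate 3 of the inputs (0.72). It also fell short with only the groups compared in the fit. With miR-424-3p, 0.45 ± 0.27 was not called (interval -0.12 to 1.02, adjusted p = 0.172). The difference of 0.37 ± 0.38 was not called and has a wide interval, -0.43 to 1.18.

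SCD, the desaturase that makes oleate from stearate, was called higher with both duplexes. Probe ILMN_1689329 gave 13.01, 13.17 and 13.15 in the miR-199a-5p pull-downs, with inputs at 12.74, 12.80 and 12.80. The miR-424-3p pull-downs stood at 13.13, 13.30 and 13.35 and the inputs at 12.73, 12.74 and 13.06, the last of which came close to the lowest pull-down. Enrichment was 0.33 ± 0.10 with miR-199a-5p (adjusted p = 0.0149) and 0.42 ± 0.10 with miR-424-3p (adjusted p = 0.00337). The first call was lost without replicate 2 of the miR-199a-5p pull-downs (0.30). The enrichments differed by -0.09 ± 0.15 (interval -0.40 to 0.23), and the difference was not called.

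**Figure D2:**
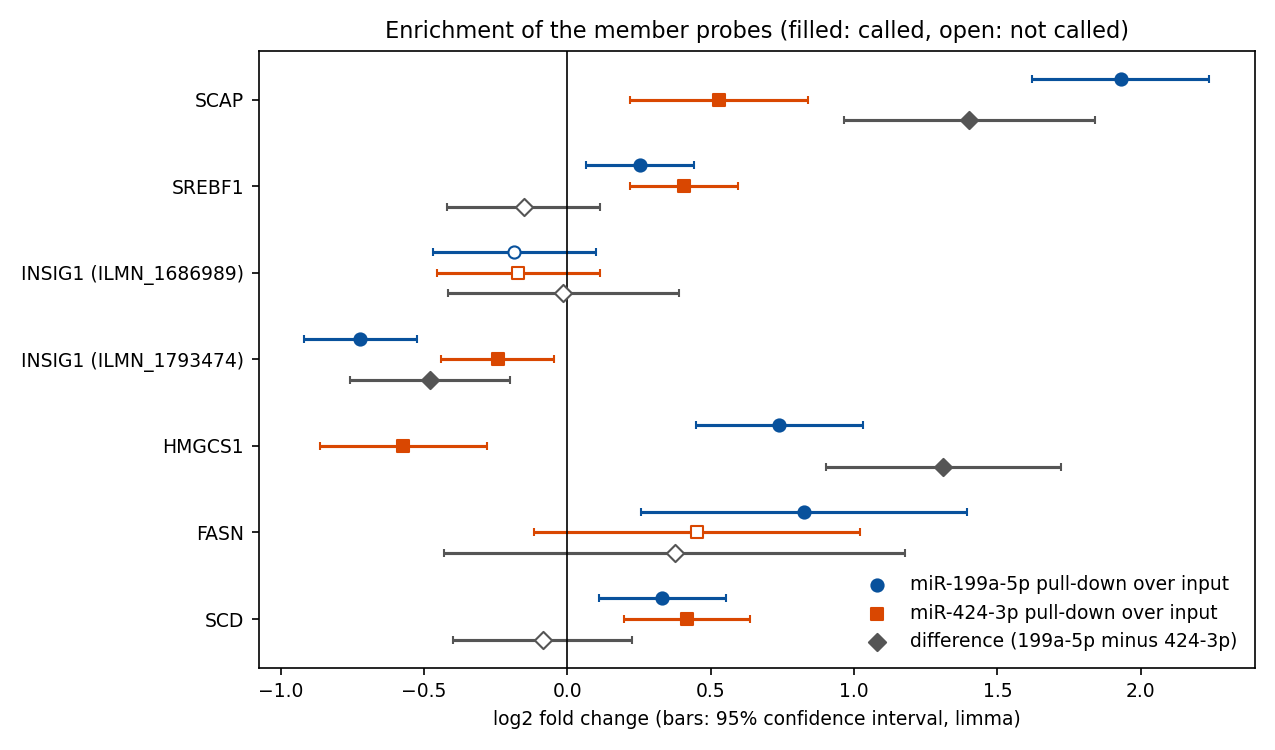
Log2 fold change of each probe (horizontal axis, bars are 95% confidence intervals from limma) for the pull-down over the input of miR-199a-5p (circles), of miR-424-3p (squares) and for their difference (diamonds), with filled symbols for called values. SCAP (1.40) and HMGCS1 (1.31) have the largest called differences, and INSIG1 probe ILMN_1793474 (-0.48) the only one in the opposite direction.

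Of the 7 probes, 2 had a greater enrichment with miR-199a-5p, 1 had a lower one and 4 had no called difference, where 18.8% and 18.0% of all probes were called in the 2 directions. The called differences were those of SCAP, HMGCS1 and 1 of the 2 INSIG1 probes. With so few probes these counts are a description and no test of the pathway. For SREBF1, FASN and SCD no difference was called, which does not show that their enrichments were equal. The interval of FASN ran from -0.43 to 1.18. Between the inputs, no probe of the 7 was called in the two-sided limma test, also none at an unadjusted p under 0.05, and the lowest adjusted p was 0.626. Across the array 1 probe was higher and 2 lower between the inputs (0.00652% and 0.0130%), and 1282 had an unadjusted p under 0.05. The largest difference among the 7 was that of SCAP, which was lower in the miR-199a-5p input by -0.24 ± 0.14 (interval -0.55 to 0.07).

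**Figure D3:**
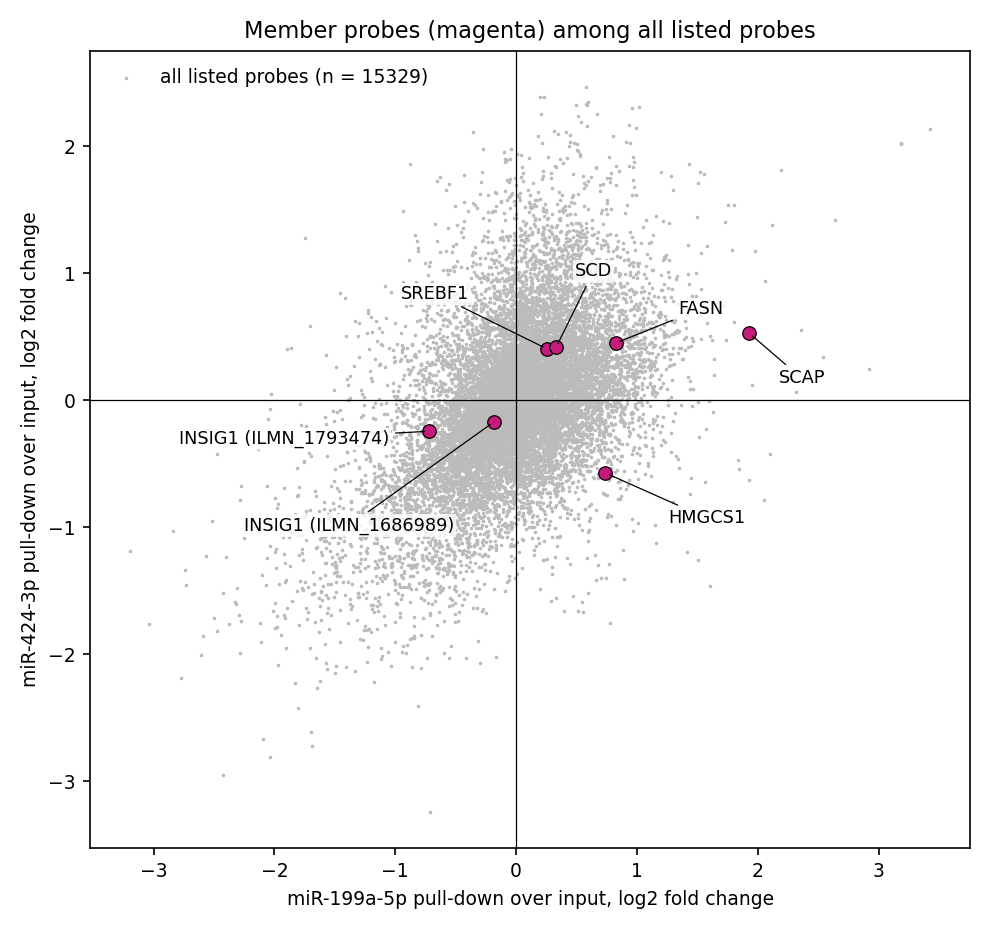
Log2 fold change over input with miR-199a-5p (horizontal) and with miR-424-3p (vertical) for all 15329 probes (grey) and for the 7 probes of the pathway (magenta). SCAP lies far to the right (1.93 and 0.53), HMGCS1 in the lower right quadrant (0.74 and -0.57) and both INSIG1 probes in the lower left.

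The wider pathway was described from lists of genes chosen with earlier results of these data known, each gene standing for its brightest probe. Of 19 genes that process SREBP or regulate that step, 14 were measured. With miR-199a-5p 10 were higher and 1, INSIG1, was lower, against 29.9% and 20.1% of the 9647 genes with a probe. The list included SCAP, SREBF1 and INSIG1, and its median log2 fold change was 0.34 against 0.06 for all genes. INSIG2, the relative of INSIG1 with the same role, went the opposite way to it, rising by 0.74 ± 0.10 (adjusted p = 5.70e-05) from 8.92, 8.83 and 8.88 in the inputs to 9.62, 9.47 and 9.75. FBXW7, a ubiquitin ligase subunit that directs nuclear SREBP to degradation, rose by 0.74 ± 0.10, and its other probe by 0.52. With miR-424-3p 7 genes were higher and 2 lower (30.3% and 25.7% of all genes). MBTPS2, the site-2 protease that frees SREBP from the membrane, rose most, by 1.18 ± 0.11, from 8.91, 8.88 and 8.71 to 9.90, 10.26 and 9.89. MBTPS1, the site-1 protease that cuts first, rose by 0.54 ± 0.09, although its other probe was not called at 0.06. With miR-199a-5p its brightest probe was called higher (0.29 ± 0.09) but the other lower (-0.53). SPRING1, a Golgi protein that assists this protease, rose with miR-424-3p by 0.56 ± 0.13. The 2 lower genes were INSIG1 and ERLIN1 (-0.28 ± 0.08). Enrichment was greater with miR-199a-5p for 6 genes (20.9% of all genes), led after SCAP by INSIG2 (0.96 ± 0.15), FBXW7 (0.78 ± 0.14) and ERLIN2 (0.76 ± 0.15), the last a membrane protein that binds the complex of SCAP and INSIG. It was lower with miR-199a-5p for 2 genes (18.1% of all genes), INSIG1 and MBTPS2 (-0.55 ± 0.15).

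The COPII coat buds the vesicles in which SCAP travels, and 9 of its 10 listed genes were measured. SAR1A, the GTPase that starts the coat, was enriched by both duplexes, by 1.22 ± 0.11 and 0.82 ± 0.11, and so was the cargo adaptor SEC24C, by 1.01 ± 0.08 and 1.06 ± 0.08. SEC24A also rose with both, by 0.94 ± 0.12 and 0.54 ± 0.12. SEC23A, the inner coat subunit, was lower with both (-0.89 ± 0.14 and -0.71 ± 0.14). Its pull-downs lay at 7.63 to 7.78, near the lowest values of the arrays. In all, 3 genes were higher and 3 lower with miR-199a-5p (33.3% each, beside 29.9% and 20.1% of all genes). For miR-424-3p the counts were 6 and 3 (66.7% and 33.3%, beside 30.3% and 25.7%). SAR1B, the paralog of SAR1A, was called lower with miR-199a-5p (-0.49 ± 0.12) but higher for miR-424-3p (0.72 ± 0.12), although its other probe was not called in the latter (-0.08). Its difference was -1.21 ± 0.16, and that of the other probe -1.38. SEC24B (-0.88 ± 0.19) and SEC24D (-0.65 ± 0.12) differed in the same direction, and SEC13, of the outer coat, in the opposite one (0.76 ± 0.15).

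Cholesterol synthesis enzymes were represented by 18 of 21 listed genes. With miR-199a-5p 5 were higher and 1 lower (27.8% and 5.56%, beside 29.9% and 20.1% of all genes), with a median of 0.13 against 0.06 for all genes. For miR-424-3p the counts were 4 and 8 (22.2% and 44.4%, beside 30.3% and 25.7%), with a median of -0.24 against 0.03. CYP51A1, the lanosterol demethylase, rose by 1.13 ± 0.09 with miR-199a-5p (adjusted p = 7.84e-07), from 8.70, 8.78 and 8.77 to 9.86, 9.94 and 9.86. HSD17B7 rose by 0.98 ± 0.12 and NSDHL, which acts with it in demethylating the sterol ring, by 0.50 ± 0.10. IDI1, the isopentenyl diphosphate isomerase, rose by 1.89 ± 0.16 with miR-424-3p (3.72-fold, adjusted p = 2.85e-07). Its signal there was 11.99, 11.93 and 12.08 in the pull-downs against 9.92, 10.42 and 9.99 in the inputs, while with miR-199a-5p it was not called at -0.07 ± 0.16. SC5D, the lathosterol desaturase, rose by 1.53 ± 0.17 with miR-424-3p, and the isomerase EBP (-0.97 ± 0.16) and the thiolase ACAT2 (-0.76 ± 0.10, with a second probe not called at 0.01) were lower. The difference between the enrichments was called for 7 genes in favour of miR-199a-5p (38.9%, beside 20.9% of all genes). CYP51A1 (1.31 ± 0.13) stood next to HMGCS1 among them. It was called for 2 in favour of miR-424-3p (11.1%, beside 18.1%), IDI1 (-1.97 ± 0.22) and SC5D (-1.13 ± 0.24). Among the 7, ACAT2 (0.55) and SQLE (0.42) each had a second probe whose difference was not called (0.26 and -0.16). Calls in opposite directions, higher with miR-199a-5p, were made for 2 genes of the list, HMGCS1 and the methylsterol oxidase MSMO1 (0.33 ± 0.11 and -0.32 ± 0.11). The other probes of MSMO1 disagreed with its brightest, at -0.63 (called lower) and -0.15 with miR-199a-5p. The second probe of SQLE was also called lower with miR-199a-5p (-1.12), where its brightest was not called (0.01). Probes of MSMO1 differed with miR-424-3p as well. Probe ILMN_2402499 was called higher with miR-424-3p (0.30), and its difference was called in favour of miR-424-3p (-0.45). Probe ILMN_1689842 was called lower with miR-424-3p (-0.45), and its difference was not called (-0.18).

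Of 32 genes of fatty acid and glycerolipid synthesis 26 were measured, FASN and SCD among them. With miR-199a-5p 12 were higher and 2 lower (46.2% and 7.69%, beside 29.9% and 20.1% of all genes). The median was 0.21 against 0.06 for all genes. Among the 12, ACLY (0.42) and ELOVL6 (0.36) had a second probe called lower (-0.76 and -0.39). The second probes of HACD2 and HSD17B12 were not called, and those of ACACA and GPAM were called higher. For miR-424-3p the counts were 7 and 6 (26.9% and 23.1%, beside 30.3% and 25.7%), near the shares over all genes, with a median of 0.13 against 0.03. ACACA, the acetyl-CoA carboxylase that feeds FASN with malonyl-CoA, had 2 probes with log2 fold changes of 3.18 ± 0.26 and 3.42 ± 0.26 with miR-199a-5p, and 2.02 ± 0.26 and 2.13 ± 0.26 for miR-424-3p. Among the miR-199a-5p pull-downs probe ILMN_2331636 of ACACA was lowest in replicate 1 (13.22, 13.74 and 14.50 in replicates 1 to 3), the array in which FASN was highest. ACACB, the carboxylase found at mitochondria, rose by 1.04 ± 0.13 with miR-199a-5p, while 0.13 ± 0.13 for miR-424-3p was not called. The inputs of ACACB lay at 7.96 to 8.29, near the bottom of the scale. GPAM, the acyltransferase that begins glycerolipid synthesis, stood at 10.79, 10.59 and 10.64 in the miR-199a-5p pull-downs against 9.51, 9.25 and 9.41, an enrichment of 1.28 ± 0.09. With miR-424-3p GPAM was called lower (-0.41 ± 0.09), while its other probe was not called (-0.31). Its difference between the duplexes, 1.69 ± 0.13 (adjusted p = 1.56e-06), was the largest of the list. With miR-424-3p the dehydratase HACD3 (-0.96 ± 0.08) and the acyltransferase AGPAT2 (-0.68 ± 0.14) were lower, and HSD17B12, of fatty acid elongation, was higher (0.59 ± 0.14), although its other probe was not called at 0.36.

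Genes of sterol uptake, storage and efflux were thinly covered, with 6 of 12 measured. NPC2, the lysosomal protein that hands cholesterol to NPC1, rose by 0.97 ± 0.11 with miR-424-3p and was lower with miR-199a-5p (-0.30 ± 0.11), a difference of -1.27 ± 0.15. NPC1 itself was lower with miR-424-3p (-0.32 ± 0.10). OSBP, a sterol transfer protein, rose with both, by 0.28 ± 0.08 and 0.21 ± 0.08. Over the 73 genes of the 5 lists together, 31 were higher and 8 lower with miR-199a-5p (42.5% and 11.0%, beside 29.9% and 20.1% of all genes). For miR-424-3p 26 genes rose and 20 fell (35.6% and 27.4%, beside 30.3% and 25.7%). Between the inputs 0 of the 73 genes were called in the limma test, where 0.0104% of all genes were higher and 0.0104% lower.

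**Figure D4:**
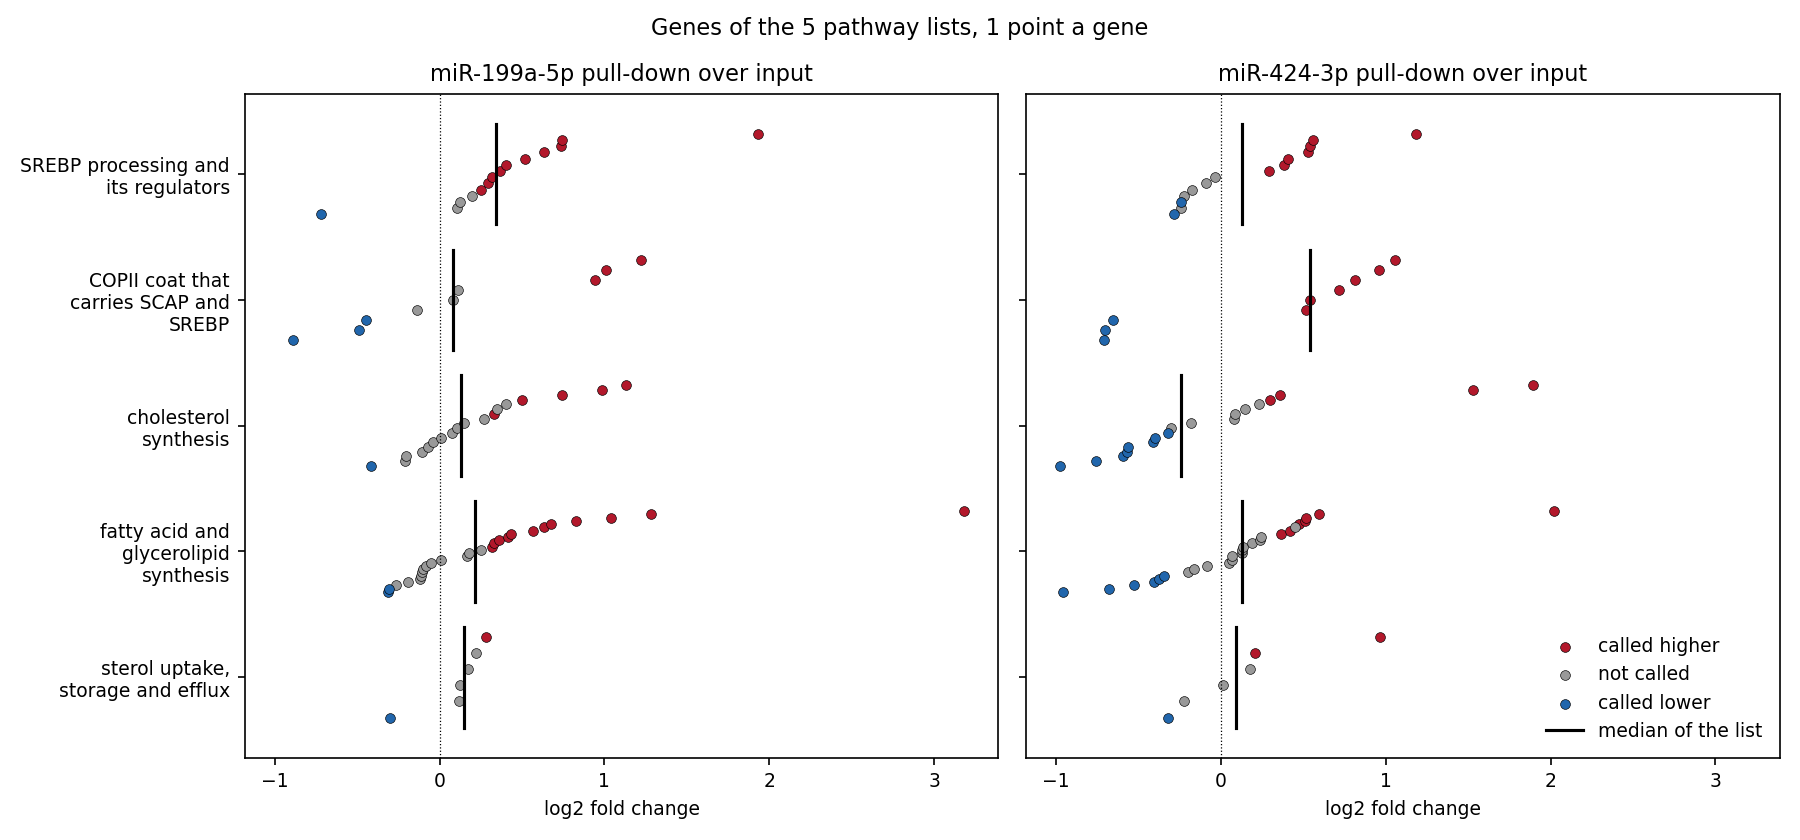
Log2 fold change over input with miR-199a-5p (left) and miR-424-3p (right) for each measured gene of the 5 lists, coloured by its call, with a vertical line at the median of the list. Each gene stands for its brightest probe. The SREBP processing list has 10 of 14 genes called higher on the left and 7 on the right (29.9% and 30.3% of all genes). Cholesterol synthesis has 1 gene called lower on the left and 8 on the right (20.1% and 25.7% of all genes).

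Genes whose signal followed that of SCAP over the 12 arrays were ranked by Pearson correlation. Uncharacterised loci, open reading frames and KIAA, FLJ and numbered FAM symbols were passed over. The closest of the remaining genes were POLR1B (0.987), KCNH6 (0.983), PAXIP1-DT (0.980), SSTR2 (0.978) and NLRP8 (0.976). The arrays fall into 4 groups, so differences between group means enter this likeness. Replicates within a group also moved together in places. In the miR-424-3p inputs SCAP stood at 10.25, 9.83 and 10.01 and NLRP8 at 11.33, 10.45 and 10.97. In the miR-424-3p pull-downs their order differed (10.65, 10.55 and 10.49 against 11.41, 11.36 and 11.51). These parts of the correlation were not separated. No gene of the pathway lists was among the 5. POLR1B, a subunit of RNA polymerase I, had log2 fold changes of 1.09 ± 0.09 with miR-199a-5p, against 0.32 ± 0.09 for miR-424-3p, and NLRP8 of 1.60 ± 0.18 and 0.51 ± 0.18.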

How the data were processed

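Per the labels and the study's methods, the authors deposited log2 values made with lumi (version 2.2.1 in the submitters' processing notes) by background adjustment, variance-stabilizing transformation and robust spline normalization. That transformation compresses differences at low signal. How the authors chose the 15329 probes is not stated. A further table, holding signals before normalization, has 24 columns of values whose names match no label, and it was set aside. The study compared pull-downs with mock-transfected cells, and here the inputs took their place. The labels (miR-199a-5p) were followed where a legend names miR-199b-5p. Probes were named from the platform annotation (12432 with 1 symbol, 2 with several, 2895 with none).

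A linear model of 4 groups was fitted to 12 arrays with limma 3.58.1 (R 4.3.3), leaving 8 residual degrees of freedom. Pull-downs and the difference were tested in each tail, the inputs two-sided, with Benjamini-Hochberg adjustment over all probes and a threshold of 0.05. The number of arrays limits the precision. The fit was tested on simulated data. The members and gene lists were chosen with earlier results of these data known. From each list up to 4 genes with the largest called change per comparison were named (2 for the inputs). ACACA and the 5 genes most like SCAP were added, with uncharacterised loci, open reading frames and KIAA, FLJ and numbered FAM symbols passed over. Genes that spell out a count of 5 or fewer, paralogs, and genes shown as pairs were named after their values were seen. Alternatives were other scalings, a floor on the mean of 9, array weights, a replicate block, fewer groups, the sidedness of the test, a fold of 1.5, every probe of a gene and leaving out each array.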

Additional observations from a re-analysis of the deposited data

Results flagged for a closer look

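For 3 of the 7 probes the enrichments with the 2 duplexes differed in the interaction test of limma. SCAP stood at 1.40 on the log2 scale in favour of miR-199a-5p, enriched with both duplexes (1.93 and 0.53). HMGCS1 stood at 1.31, with an enrichment of 0.74 by miR-199a-5p against a depletion of -0.57 by miR-424-3p. INSIG1 probe ILMN_1793474 stood at -0.48, depleted with both (-0.72 and -0.24), whereas its other probe had a difference of -0.01 that was not called. Across the array 18.8% of probes had a called difference in favour of miR-199a-5p and 18.0% in the opposite direction.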

How the results depend on the processing

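No called log2 fold change of the 7 probes changed sign, and of 447 values under alternative settings 421 kept their side of the threshold, 24 lost a call and 2 gained one. Between miR-199a-5p and input, SCAP ranged from 1.80 to 2.06, and its difference between the duplexes from 1.27 to 1.53. The replicate numbers did not meet the bar for pairing, a correlation over 0.1 in every pair: deviations from group means correlated at -0.10 to 0.26 between a pull-down and the input of its number, at 0.51, 0.04 and 0.11 between the inputs and at 0.08, 0.22 and 0.00 between the pull-downs, and 1 of 3 miR-199a-5p and 2 of 3 miR-424-3p pull-downs correlated best with the input of their own number. With the replicate block the counts of the 7 probes stayed at 5 and 1, 3 and 2, and 2 and 1, and across the array the inputs had 4 probes higher and 4 lower. With only the groups compared, 3 probes were higher with miR-199a-5p, SREBF1 and FASN losing their calls, FASN was called with miR-424-3p, and no probe of the array was higher between the inputs (0, against 1). With a fold of at least 1.5, 3 of the 7 were higher with miR-199a-5p, 0 higher and 0 lower with miR-424-3p, and 0 had a lower enrichment with miR-199a-5p. Across the array that fold left 1644 higher and 1778 lower with miR-199a-5p (3920 and 3963 without it), and for miR-424-3p 1966 and 2131 (4029 and 4414). It left 4 of the 10 SREBP processing genes, 3 of the 5 cholesterol genes and 6 of the 12 fatty acid genes called higher with miR-199a-5p. For miR-424-3p it left 1 of 7, 2 of 4 and 2 of 7. Counting every probe gave 7 lower calls for the COPII coat (3) and 6 for fatty acid synthesis (2) with miR-199a-5p, and 13 for the latter (6) with miR-424-3p. Among probes with a mean of at least 9, and with cyclic loess, INSIG1 lost its call with miR-424-3p, leaving 1 lower. That floor left 2580 higher and 2307 lower with miR-199a-5p, 2618 and 2778 for miR-424-3p, 1831 lower for the difference (2757), and 2 higher and 5 lower between the inputs. Array weights took FASN to 0.47 without a call with miR-199a-5p and gave 160 probes higher and 139 lower between the inputs, none of them among the 7. Between the inputs, quantile normalization gave 2 higher, and one-sided tests 5 lower. Quantile normalization also gave FASN a call with miR-424-3p (0.59). Leaving out 1 array gave 3 to 4 of the 7 higher and 1 lower with miR-199a-5p, 3 higher and 1 to 2 lower with miR-424-3p, and 2 and 1 for the difference. Across the array those ranges were 3400 to 3765 and 3439 to 3781 with miR-199a-5p, 3518 to 3860 and 3880 to 4163 with miR-424-3p, 2367 to 2929 and 2409 to 2785 for the difference, and 0 to 3 and 2 to 4 between the inputs. Of 690 list counts under all alternatives 604 stayed within 1.5 times. Normexp background correction and the slide as a block were not run, as neither could be tied to the arrays. Signal limits SREBF1 and INSIG1 probe ILMN_1686989, which lay at 7.71 to 8.49, near the lowest values of the arrays.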
